A study of Homo sapiens with 13 samples.

Results

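A group of 10 genes of the TGF-beta pathway was followed in MDA-MB-231 cells treated with 2 inhibitors of translation. They were chosen by symbol and are the ligands TGFB1 and TGFB2, the receptors TGFBR1 and TGFBR2, the SMADs SMAD2, SMAD3, SMAD4 and SMAD7, and the co-repressors SKI and SKIL. All 10 were found, as 1 entry each, among the 24,875 symbols of the Silvestrol experiment and the 13,121 symbols of the INK128 experiment. All 10 were also among the 10,505 genes with enough signal to be analysed with Silvestrol, whereas 8 of the 10 were among the 7,102 genes analysed with INK128.

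TGF-beta ligands are secreted in a latent form and, once released, bring together a type II and a type I receptor kinase at the cell surface. The type I receptor phosphorylates SMAD2 and SMAD3, which join SMAD4 and move to the nucleus to regulate transcription, while SMAD7 and the co-repressors SKI and SKIL (also called SnoN) restrain the pathway. In epithelial tumours the pathway is known both for arresting growth and for promoting migration and a mesenchymal state.

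MDA-MB-231 is a triple-negative human breast cancer cell line, and the study asked which mRNAs depend on the RNA helicase eIF4A for translation. Ribosome footprints (RFs, the mRNA fragments covered by ribosomes) and mRNA were sequenced after treatment with Silvestrol, an inhibitor of eIF4A, or with INK128, an inhibitor of the catalytic site of mTOR. The Silvestrol experiment held 7 RF libraries. Of these, 1 came from a culture left untreated, and others received the solvent DMSO or Silvestrol at 25 nM, for 1 h at passage 3 (1 library per treatment) and for 2 h at passages 3 and 4 (2 libraries per treatment). mRNA came from passage 3 at 2 h, with 1 DMSO and 1 Silvestrol library. The INK128 experiment held 4 libraries, with RFs and total RNA from cells given DMSO or 200 nM INK128 for 2 h, 1 library each. All cells were of this single line, and the labels name no genetic change in any group.

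Counted reads per Silvestrol library ranged from 2,652,423 (Silvestrol RFs at 2 h, passage 4) to 50,315,607 (DMSO mRNA). RF levels are given as RPKM, the reads on a gene scaled to its counted length and to the depth of the library. The labels of 2 libraries were at odds with themselves. For Silvestrol RFs of passage 3 the title says 2 h but the treatment field 1 h, and for DMSO mRNA the treatment field says untreated. The title of that mRNA library says DMSO, and the paper describes its mRNA as coming from the same biological samples as the RFs. The column of the library carries no treatment name, so DMSO and untreated cells cannot be told apart as its source by the labels. The DMSO translation efficiency and every change in it with Silvestrol rest on that library. Of the markers of the line, the mesenchymal VIM had 4789 to 7031 RPKM in the 7 RF libraries, CD44 138 to 344, AXL 85.7 to 162 and MSN 262 to 458, while ESR1 was listed at 0 in all 7, and PGR and CDH1 did not exceed 0.0419 and 0.108 RPKM. The epithelial genes were not all absent, since EPCAM had 3.24 to 9.94 RPKM and KRT18 47.4 to 95.4, while ERBB2 had 1.63 to 4.05 and KRT8 was listed at 0 in 5 of the 7 libraries and at up to 22.3 in the others. In the DMSO RFs of the INK128 experiment KRT8 and KRT18 had 663 and 789 FPKM, so the keratins were not low there. Libraries were made from whole cultures, so fewer cells making an mRNA and less of it per cell cannot be told apart.

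The 5′ untranslated regions (UTRs) of the 10 mRNAs, the part that a scanning ribosome has to cross, were mostly long. In the GENCODE annotation on GRCh37 (hg19) their median length was 539.5 nt, against 133 nt over the 10,302 analysed genes with a selected transcript, and 9 of the 10 lay above that median. TGFB2 had the longest, at 1366 nt, followed by TGFB1 at 878 nt and SKIL at 682 nt. SMAD3, SMAD7 and SMAD4 had 553, 541 and 538 nt, SKI had 448 nt, SMAD2 had 352 nt and TGFBR2 had 283 nt, while TGFBR1 had only 93 nt. These start sites are annotated ones and were not measured in these cells, and for most of the genes other transcripts with shorter or longer 5′ UTRs are annotated, such as 232 to 1055 nt for SKIL and 26 to 553 nt for SMAD3.

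The GC content of the 10 regions had a median of 71.9%, against 67.6% over all genes, but the members differed widely. SKI stood at 89.1% and TGFBR1 at 81.7%, whereas TGFB2 had 55.1% and SKIL had 37.2%, a value above that of only 0.675% of genes. Predicted folding energies had a median of -267 kcal/mol against -51.5 kcal/mol over all genes, and per nucleotide -0.465 against -0.376 kcal/mol. At least 1 ATG lay upstream of the coding sequence in 6 of the 10 (38.7% of all genes), with 6 such ATGs in SKIL and 4 in SMAD7. A run of at least 4 CGG repeats, searched on the mRNA strand, was found in SKIL alone among the members, and in 4.67% of all genes. In SKIL it has 5 repeats and lies near the cap, at bases 29 to 43 of the transcript, and is shown with 6 bases on either side and the repeats in capitals.
SKIL CGG repeats: cggcgaCGGCGGCGGCGGCGGgcacag

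The cap-proximal bases are shown because mRNAs that begin with a C and a run of pyrimidines, called TOP mRNAs, are known for their response to mTOR inhibition. The first 20 bases of the annotated transcript follow, read from GRCh37, for the members whose translation efficiency was lowered most with Silvestrol, with EEF2, a translation elongation factor and textbook TOP mRNA, for contrast. Capitals mark a pyrimidine run that starts at the first base.
TGFB2 (chr1:218518678-218518697, plus strand): gatgttatctgctggcagca
SMAD3 (chr15:67357940-67357959, plus strand): gaaacacagactgggagcgg
SMAD7 (chr18:46477316-46477335, minus strand): attgcctgcttctccccacc
SKIL (chr3:170075503-170075522, plus strand): acagccgaagggagcgggcg
EEF2 (chr19:3985442-3985461, minus strand): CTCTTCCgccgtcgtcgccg
None of the 10 members started with a C followed by pyrimidines to a run of at least 5 bases, which 5.45% of all genes did.

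RFs on the 10 mRNAs were compared between Silvestrol and DMSO to see how ribosome occupancy responded to inhibition of eIF4A. At 2 h, 4 of the 10 members had fewer RFs with Silvestrol (TGFB1, SMAD3, SMAD4 and SKIL) and 0 had more, by edgeR's quasi-likelihood test at an adjusted p of 0.05 over 10,505 genes with 2 libraries per treatment. This fit leaves out the pairing of the samples by passage. Over all genes, 7.76% were lower and 2.23% were higher. With the passage as a replicate block, 7 of the 10 members were lower and 0 higher, where 28.1% of all genes were lower and 25.0% higher, the additions being TGFB2, SMAD7 and SKI. The median log2 change of the 10 was -1.01, against -0.01 over all genes. Changes computed from RPKM are centred lower, with a median over all genes of -0.17 in passage 3 and -0.15 in passage 4.

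**Figure D1:**
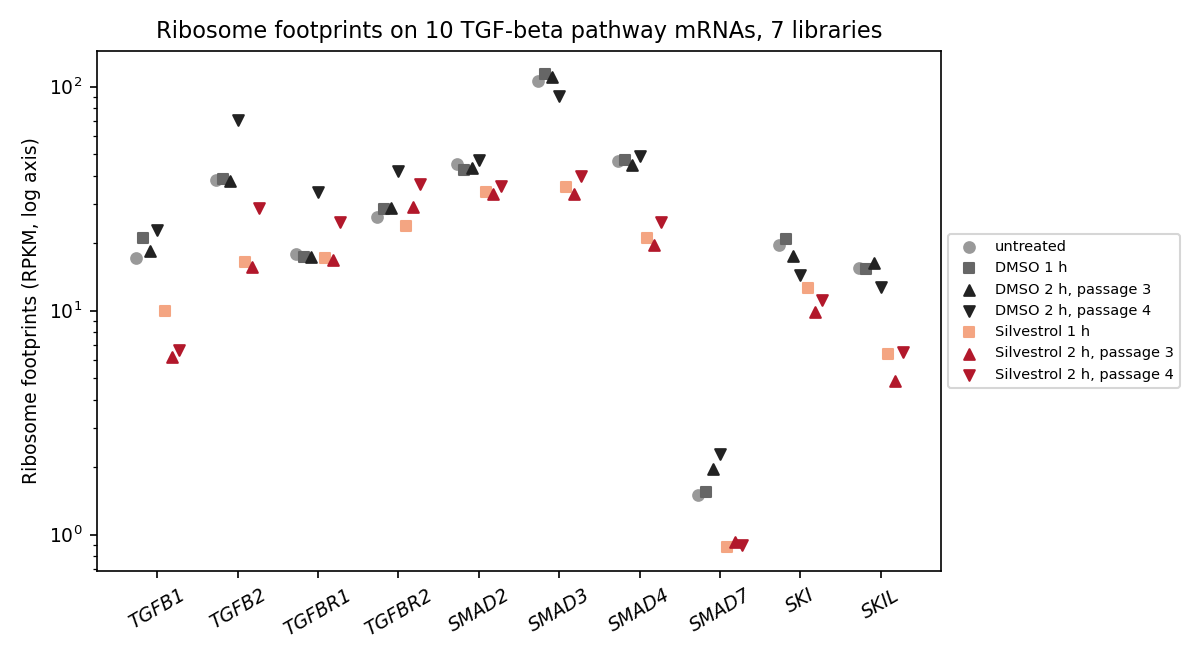
RF level (RPKM, log axis) of each member in the 7 RF libraries of the Silvestrol experiment, with controls in grey and black and Silvestrol in orange and red, 1 point per library. The 3 Silvestrol points lie below all 4 control points for 8 of the 10 genes, against 32.9% of all genes, and overlap them for TGFBR1 and TGFBR2.

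Among the ligands, TGFB1, the most widely expressed form of the ligand, had RF levels of 17.3 RPKM in untreated cells and 21.1 with DMSO at 1 h, and of 18.5 and 23.0 with DMSO at 2 h in passages 3 and 4. With Silvestrol it had 9.94 RPKM at 1 h, and 6.19 and 6.66 at 2 h in passages 3 and 4. Every Silvestrol library was thus below every control, and at 2 h RFs stood at 33.4% of DMSO in passage 3 and 29.0% in passage 4. RFs on TGFB1 fell by 1.56 on the log2 scale (SE 0.22, edgeR adjusted p = 0.0236), the largest RF change of the 10 in this fit. In passage 3 alone the log2 changes of SKIL (-1.74) and SMAD3 (-1.73) were larger than that of TGFB1 (-1.58). In passage 4 TGFB1 had -1.79, from 27 reads with Silvestrol. With all 7 RF libraries in the fit SMAD3 had -1.41 and TGFB1 -1.21.

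TGFB2, a ligand with a very long 5′ UTR, had 38.1 RPKM in untreated cells, 38.8 with DMSO at 1 h, and 38.0 and 70.7 with DMSO at 2 h in passages 3 and 4. Silvestrol libraries had 16.5 RPKM at 1 h and 15.7 and 28.9 at 2 h. The groups did not overlap, and passage 4 lay well above passage 3 under both treatments. Within a passage the ratio was close to constant, at 41.4% of DMSO in passage 3 and 40.8% in passage 4. The log2 change of -1.19 (SE 0.38) did not pass edgeR's test without the block (adjusted p = 0.108) and passed it with the block (log2 change -1.15, SE 0.14, edgeR adjusted p = 4.99e-16).

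Neither receptor passed the test with or without the block. TGFBR1, the type I receptor kinase, had 17.9 RPKM in untreated cells, 17.3 with DMSO at 1 h, and 17.4 and 34.0 with DMSO at 2 h in passages 3 and 4. With Silvestrol it had 17.2 RPKM at 1 h and 16.8 and 24.9 at 2 h. In passage 3 all values lay between 16.8 and 17.9 RPKM whatever the treatment, and the log2 change at 2 h was -0.05, with a 95% counting interval of -0.22 to 0.11. In passage 4 it was -0.45, with an interval of -0.75 to -0.16, and the edgeR adjusted p over both was 0.766.

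TGFBR2, the type II receptor kinase that binds the ligand first, had 26.3 RPKM in untreated cells, 28.4 with DMSO at 1 h, and 28.9 and 42.2 with DMSO at 2 h in passages 3 and 4. Its Silvestrol values were 24.0 RPKM at 1 h and 29.2 and 36.8 at 2 h. Treated and control libraries were interleaved, and the fitted log2 change was 0.02 (SE 0.21, edgeR adjusted p = 0.967).

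Of the receptor-activated SMADs, SMAD3 had the highest RF level of the 10 members in every control library. It had 106 RPKM in untreated cells, 114 with DMSO at 1 h, and 110.0 and 91.1 with DMSO at 2 h in passages 3 and 4. After Silvestrol it had 35.5 RPKM at 1 h and 33.2 and 39.9 at 2 h. Each Silvestrol library was far below every control, at 31.3% of DMSO at 1 h, and 30.2% and 43.7% at 2 h. SMAD3 RFs fell by 1.34 on the log2 scale (SE 0.17, edgeR adjusted p = 0.0202).

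SMAD2, its close relative, had 45.0 RPKM in untreated cells, 42.5 with DMSO at 1 h, and 43.3 and 46.9 with DMSO at 2 h. With Silvestrol it had 34.0 RPKM at 1 h and 33.1 and 36.0 at 2 h. The groups were narrow and did not overlap, yet the reduction was small, to 76.5% of DMSO in passage 3 and 76.7% in passage 4. The log2 change of -0.26 (SE 0.14) did not pass edgeR's test (adjusted p = 0.289, and 0.0813 with the block).

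SMAD4, the partner that SMAD2 and SMAD3 share with the SMADs of the BMP branch, had 46.7 RPKM in untreated cells, 47.2 with DMSO at 1 h, and 44.7 and 49.0 with DMSO at 2 h. Silvestrol libraries held 21.1 RPKM at 1 h and 19.6 and 25.0 at 2 h. The 4 controls lay within 44.7 to 49.0 RPKM and the 3 treated libraries within 19.6 to 25.0, with a wide gap between them. SMAD4 RFs fell by 0.96 on the log2 scale (SE 0.16, edgeR adjusted p = 0.0327).

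SMAD7, the inhibitory SMAD that blocks the type I receptor, was the member with the fewest RFs. Controls had 1.5 RPKM untreated, 1.55 with DMSO at 1 h, and 1.97 and 2.29 with DMSO at 2 h, and Silvestrol libraries had 0.878 at 1 h and 0.927 and 0.902 at 2 h. These values rest on 87 and 24 reads with DMSO at 2 h and on 20 and 4 reads with Silvestrol, so that the counting interval of the passage 4 log2 change runs from -3.33 to 0.20. The groups did not overlap. The fitted log2 change was -1.05 (SE 0.41), with an edgeR adjusted p of 0.151, or 0.0387 with the block.

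The co-repressors SKI and SKIL bind SMAD complexes and hold target genes silent. SKI had 19.6 RPKM in untreated cells, 21.0 with DMSO at 1 h, and 17.5 and 14.4 with DMSO at 2 h in passages 3 and 4. After Silvestrol the values were 12.6 RPKM at 1 h and 9.84 and 11.1 at 2 h. All Silvestrol values were below all controls, with 56.3% of DMSO left in passage 3 and 77.0% in passage 4. The log2 change of -0.49 (SE 0.20) had an edgeR adjusted p of 0.164, or 0.00160 with the block.

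SKIL had 15.5 RPKM in untreated cells, 15.3 with DMSO at 1 h, and 16.3 and 12.7 with DMSO at 2 h. Its Silvestrol libraries had 6.43 RPKM at 1 h and 4.87 and 6.55 at 2 h. The highest treated library was far below the lowest control. RFs on SKIL fell by 1.26 on the log2 scale (SE 0.25, edgeR adjusted p = 0.0410), although the passages differed, with 29.9% of DMSO in passage 3 and 51.4% in passage 4.

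Across the 7 RF libraries, the 3 Silvestrol values lay below all 4 control values for 8 of the 10 members, and above them for 0. Over the 10,491 genes with a value in every library, 32.9% lay below and 10.3% above. Without the passage 3 library whose labels conflict on the time, the members below all controls again numbered 8, against 34.7% of all genes.

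The 1 h libraries show how early the response was seen, in 1 library per treatment and without a replicate check. With 25 nM Silvestrol for 1 h, 5 of the 10 members had a log2 change of RFs below -1, against 7.98% of 10,494 genes. They were SMAD3 (log2 change -1.68, 95% counting interval -1.76 to -1.59), SKIL (-1.25, -1.42 to -1.09), TGFB2 (-1.24, -1.37 to -1.11), SMAD4 (-1.16, -1.26 to -1.06) and TGFB1 (-1.09, -1.27 to -0.91). TGFB1 was at -0.80 with untreated RFs as control and at -0.97 with reads scaled to library totals, which leaves 4 members below -1 in both. TGFBR1 had a log2 change of -0.01 (-0.15 to 0.12) and TGFBR2 of -0.25 (-0.35 to -0.14), against a median of -0.18 over all genes, which was -0.05 with library totals, where TGFBR1 had 0.11. The median of the 10 members was -0.95.

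Whether the RF change itself differed between 1 h and 2 h was tested as an interaction of treatment and time in edgeR. It was called for 0 of the 10 members and 0 of all genes, and 112 genes had an unadjusted p under 0.05, none of them a member. With the passage as a block 214 genes were called, again with 0 members among them. Each treatment has 1 library at 1 h, so the spread comes from the 2 h libraries, and the passage 3 Silvestrol library titled 2 h is the one whose treatment field says 1 h; that no member was called does not show that the changes were alike. With the block the lowest adjusted p of a member was that of TGFB1 (0.365 by edgeR), whose RFs stood at 47.0% of DMSO at 1 h and at 33.4% at 2 h in the same passage.

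**Figure D2:**
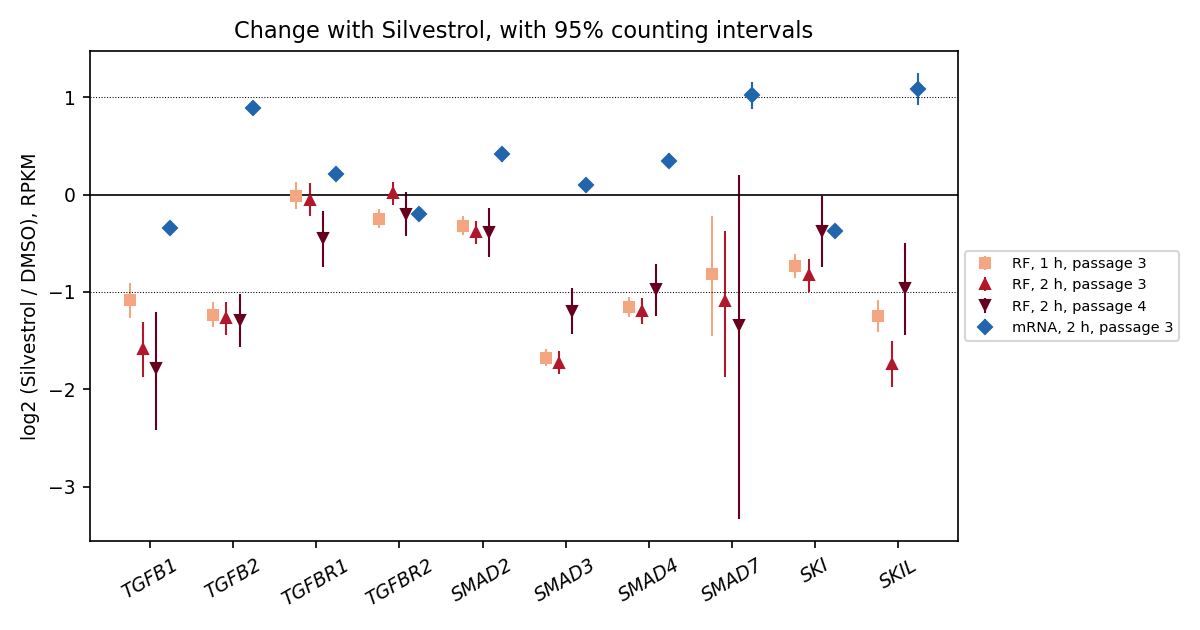
Log2 ratio of Silvestrol to DMSO for the RFs of each member at 1 h and at 2 h in both passages, and for its mRNA at 2 h; bars are 95% counting intervals of the reads, and dotted lines mark -1 and 1. RF ratios of TGFB1, TGFB2, SMAD3, SMAD4 and SKIL lie near or below -1 in all 3 pairs, while the mRNA ratios of TGFB2, SMAD7 and SKIL lie between 0.89 and 1.09.

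mRNA levels at 2 h were compared to separate a change in the amount of message from a change in its translation. With 1 library per treatment there is no replicate check, and the intervals below cover counting error only. Of the 10 members 2 had more than 2-fold more mRNA with Silvestrol, against 4.71% of all genes, and 0 did with 0.5 added to each RPKM value. The 2 were SKIL, from 2.70 to 5.72 RPKM (log2 change 1.09, interval 0.92 to 1.25), and SMAD7, from 4.30 to 8.73 RPKM (1.02, 0.88 to 1.16). TGFB2 mRNA was next, at 17.9 RPKM with DMSO and 33.1 with Silvestrol (0.89, 0.83 to 0.94). For these 3 genes the mRNA value was higher and the passage 3 RF value lower with Silvestrol, although TGFB2 and SMAD7 did not pass the RF test without the block.

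The other SMAD mRNAs were less far apart. SMAD2 had 5.44 RPKM with DMSO and 7.25 with Silvestrol, SMAD4 had 6.19 and 7.88, and SMAD3 had 33.2 and 35.6, with log2 changes of 0.41, 0.35 and 0.10. TGFBR1 had 14.8 and 17.2 RPKM. Lower mRNA levels with Silvestrol were measured for TGFB1 (44.6 and 35.1 RPKM), TGFBR2 (42.6 and 37) and SKI (21.4 and 16.4), with log2 changes of -0.34, -0.20 and -0.38. The median log2 change was 0.28 over the 10 members and 0.04 over all genes.

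Translation efficiency (TE) is the RPKM of RFs divided by the RPKM of mRNA. With DMSO the members covered nearly the whole range of the 10,505 genes. SMAD2 (TE 7.96), SMAD4 (7.22) and SKIL (6.04) exceeded 95.7%, 94.4% and 91.6% of genes, and SMAD3 (3.31) and TGFB2 (2.12) exceeded 73.9% and 56.1%. TGFBR1 (1.17), SKI (0.817), TGFBR2 (0.677), SMAD7 (0.459) and TGFB1 (0.416) were below the middle, with TGFB1 above only 9.45% of genes. These levels come from 1 RF and 1 mRNA library.

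The change in TE was expressed as a z-score over all genes, with -1.5 and 1.5 as thresholds; a z-score of -1.5 stands for a log2 change of -1.78. In passage 3, 4 of the 10 members were below -1.5, against 6.75% of all genes, and 0 were above 1.5, against 4.85%. SKIL had the lowest z-score, -2.57, as its TE went from 6.04 to 0.851 (log2 change -2.83, counting SE 0.14). TGFB2 followed at -1.89 (TE 2.12 and 0.475), then SMAD7 at -1.84 (0.459 and 0.106) and SMAD3 at -1.54 (3.31 and 0.934). SMAD3 lay just inside the threshold, and SMAD4, at -1.25 with TE of 7.22 and 2.48, just outside it. For SMAD7 the log2 change in TE was -2.11 with a counting SE of 0.36. In passage 3 the RF log2 changes of SKIL, TGFB2, SMAD7 and SMAD3 were -1.74, -1.27, -1.09 and -1.73, none as low as -1.78. Their mRNA log2 changes were 1.09, 0.89, 1.02 and 0.10, from 1 library per treatment.

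In passage 3 RFs on TGFB1 changed by -1.58 on the log2 scale and its mRNA by -0.34. Its z-score was -0.95 (TE 0.416 and 0.176). SMAD2 stood at -0.49, SKI at -0.14, TGFBR1 at 0.05 and TGFBR2 at 0.55. With the RFs of passage 4 over the same mRNA libraries, SMAD7 (-2.17), TGFB2 (-1.97) and SKIL (-1.83) were again below -1.5, and SMAD3 (-1.04) was not, where 6.78% of all genes were below it.

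**Figure D3:**
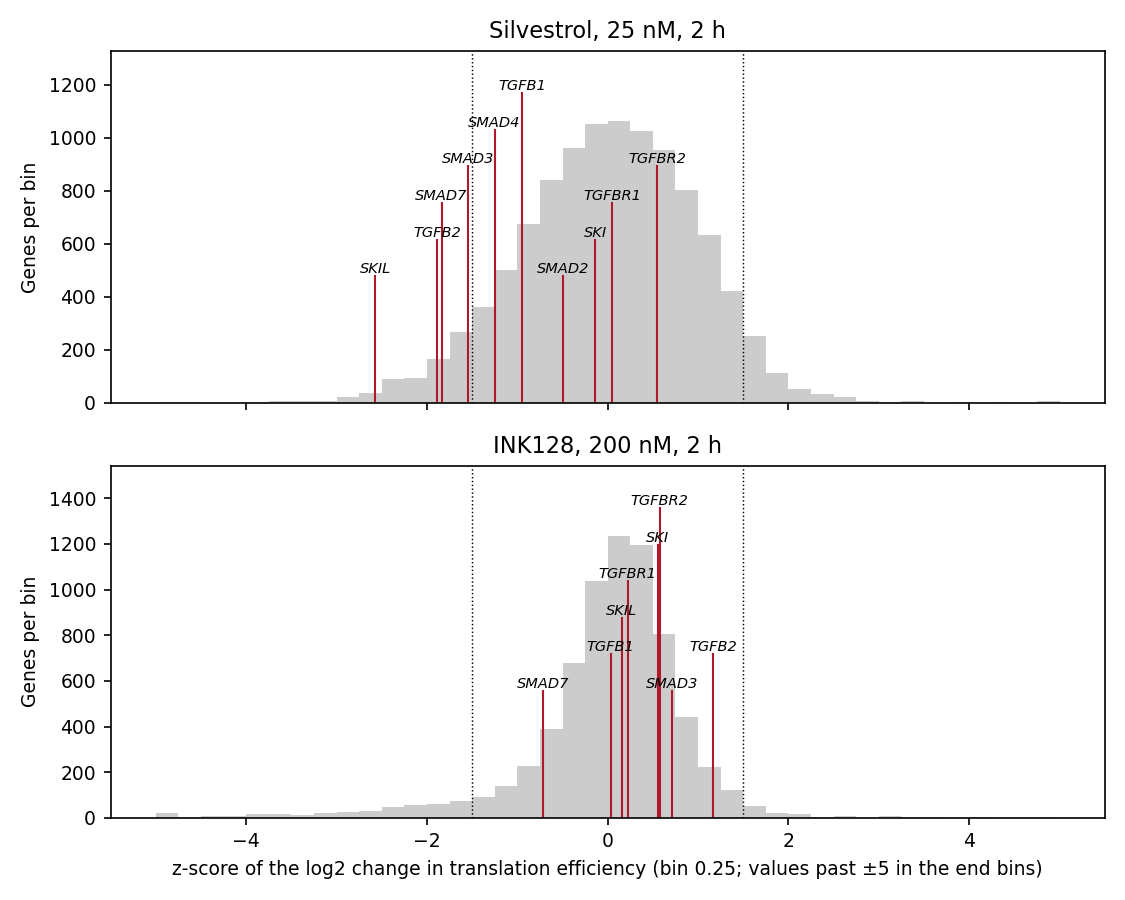
Distribution of the z-score of the log2 change in TE over the genes analysed with Silvestrol (top, 10,505 genes) and INK128 (bottom, 7,102 genes), as genes per bin; red lines mark the members and dotted lines -1.5 and 1.5, and line heights carry no value. SKIL, TGFB2, SMAD7 and SMAD3 lie below -1.5 with Silvestrol, and no member lies past either threshold with INK128.

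Tested as an interaction of assay and treatment over the 6 libraries at 2 h, TE was lower for 0 of the 10 members at an edgeR adjusted p of 0.05, against 0.0190% of all genes, and higher for 0 genes of any kind. The lowest adjusted p of a member was 0.0828 for SKIL (log2 change -2.22, SE 0.41, by edgeR), and 6 members had an unadjusted p under 0.05, as did 2611 of all genes. DESeq2 called lower TE for 3 of the 9 members to which it gave an adjusted p (TGFB2, SMAD3 and SKIL), against 6.49% of 8264 genes. With the passage as a block 7 members had lower TE and 0 had higher, where 22.5% of all genes were lower and 22.7% higher by edgeR. These were SKIL (log2 change -2.28, SE 0.30), TGFB2 (-1.91, SE 0.19), SMAD7 (-1.89, SE 0.42), SMAD3 (-1.34, SE 0.19), SMAD4 (-1.19, SE 0.20), TGFB1 (-1.03, SE 0.24) and SMAD2 (-0.54, SE 0.20), with edgeR adjusted p-values from 1.75e-05 for TGFB2 to 0.0390 for SMAD2. mRNA has 1 library per treatment in this model, so its spread is that of the RF libraries.

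The 5′ UTR lengths given above were set beside these z-scores as a description. Over the 10,302 genes, a longer 5′ UTR went with a lower z-score (Spearman's rho -0.53 across genes, which are not independent replicates). Of the 1031 genes with the longest 5′ UTRs, 409 nt or more, 32.0% had a z-score below -1.5, and their median was -1.0. Of the 1082 with the shortest, 29 nt or less, 0.555% did. Of the 10 members 7 were in the longest group, including all 4 below -1.5. Within that group 4 of 7 members were below the threshold, which is read against 32.0%, and over all members 4 of 10, against 6.75%. SKI, with 448 nt at 89.1% GC, had a z-score of -0.14, while SKIL, with 682 nt at 37.2% GC, had -2.57.

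**Figure D4:**
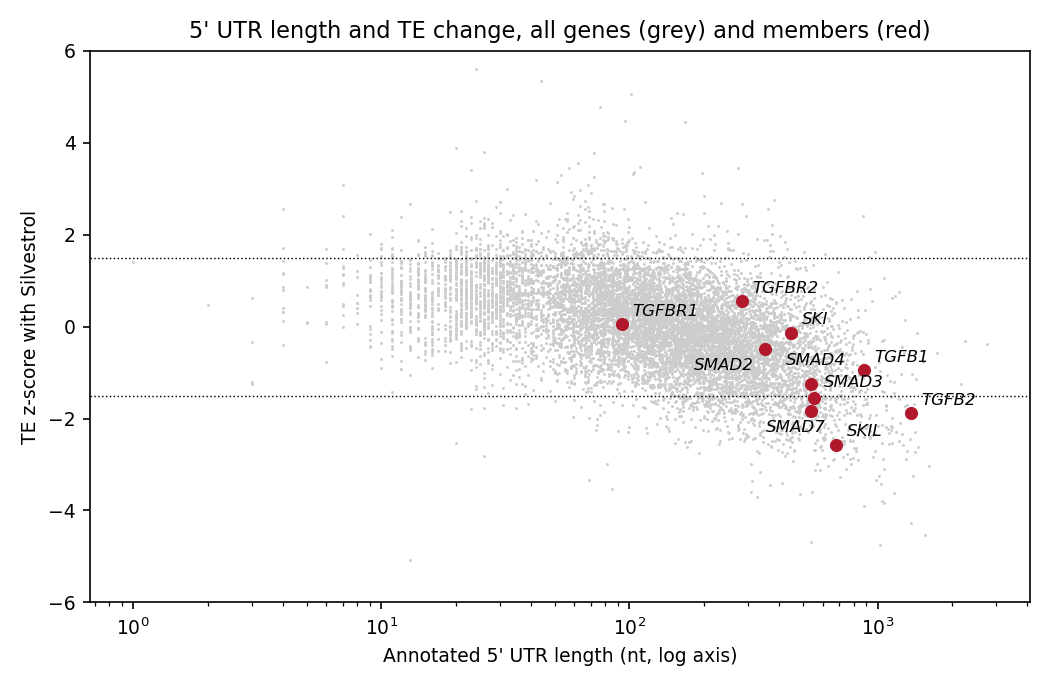
TE z-score with Silvestrol against annotated 5′ UTR length (nt, log axis) for 10,296 genes (grey) and the 10 members (red); dotted lines mark -1.5 and 1.5, 6 of the genes lie beyond the vertical axis, and a further 6 with no annotated 5′ UTR base are left out. The members with 538 nt or more have z-scores from -0.95 to -2.57, and TGFBR1 and TGFBR2, with 93 and 283 nt, lie above 0.

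INK128 was studied to see whether mRNAs that depend on eIF4A also respond to inhibition of mTOR. The values are FPKM (fragments scaled to gene length and library depth) from 1 library per arm, with no read counts, so depth is unknown and no test is possible. The scales of the libraries differed: over 7,102 genes the median log2 change with INK128 was 0.01 for RFs, -1.17 for total RNA and 1.18 for TE, and member values are read relative to these. Of the 8 members analysed, 0 had a TE z-score below -1.5, against 5.58% of all genes, and 0 had one above 1.5, against 1.75%.

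TGFB2 had the highest z-score of the members, 1.16, with RFs of 18.7 FPKM with DMSO and 28.6 with INK128 and total RNA of 1.5 and 0.699. With Silvestrol its z-score was -1.89. SMAD7 had the lowest, -0.71, with RFs of 3.04 and 3.05 FPKM and total RNA of 0.496 and 0.294. The other 6 lay between, with z-scores of 0.71 for SMAD3, 0.57 for TGFBR2, 0.55 for SKI, 0.22 for TGFBR1, 0.16 for SKIL and 0.03 for TGFB1. The SKIL value rests on total RNA of 0.426 FPKM with DMSO and 0.190 with INK128, near the required mean of 0.3. With a pseudocount of 0.1 or 0.5 added to each value, its z-score was -0.18 or -0.55.

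RF levels with INK128 were close to those with DMSO for TGFB1 (24.8 and 25.1 FPKM), SKIL (4.52 and 4.62) and SKI (4.84 and 5.18). They were somewhat higher for TGFBR1 (10.0 and 12.6), TGFBR2 (17.9 and 21.7) and SMAD3 (12 and 13.5). SMAD2 and SMAD4 were outside the filter because of their low total RNA, with RFs of 2.87 and 2.81 FPKM for SMAD2 and 5.12 and 5.80 for SMAD4. EEF2, the TOP mRNA shown above, had a z-score of -2.29 with INK128 and 0.91 with Silvestrol.

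Further genes of the pathway were taken from a list of 75, of which 59 could be tested with Silvestrol. RFs were lower at 2 h for 9 of the 59 (15.3%) and higher for 0 by edgeR's test, against the 7.76% and 2.23% of all genes. With the block 22 were lower and 13 higher, to be read against the 28.1% and 25.0% of all genes. TE z-scores were below -1.5 for 11 of the 59, against 6.75% of all genes, and above 1.5 for 4, against 4.85%, with a median of -0.28 against 0.03 over all genes. With the RFs of passage 4 over the same passage 3 mRNA libraries, 9 were below -1.5, against 6.78% of all genes, and 3 were above 1.5, against 4.82%. Of the 9, 8 were below -1.5 with the RFs of either passage. Both z-scores share 1 mRNA ratio, so they are not independent repeats. The z-scores given here are those of passage 3 unless stated.

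Of the other SMADs, 2 of the 3 tested had fewer RFs, against 7.76% of all genes, and 3 of 3 with the block, against 28.1%. RFs on SMAD1 and SMAD5, which carry the signal of bone morphogenetic proteins, fell by 1.62 (SE 0.32, edgeR adjusted p = 0.0420) and by 1.26 (SE 0.14, edgeR adjusted p = 0.0173) on the log2 scale. For SMAD1 the levels were 10.7 and 7.35 RPKM with DMSO and 2.56 and 2.89 with Silvestrol in passages 3 and 4, and for SMAD5 76.6 and 72.8 with DMSO and 26.6 and 30.5 with Silvestrol. Their z-scores were -2.56 and -1.67, and -1.89 and -1.44 with passage 4. SMAD9, with 4 reads in the passage 4 Silvestrol library, had an RF log2 change of -0.68 (SE 0.65, edgeR adjusted p = 0.524, and 0.0320 with the block) and a z-score of -0.18.

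Among SMAD partners, co-repressors and modifiers, 6 of 20 had fewer RFs and 0 had more, against 7.76% and 2.23% of all genes. With the block 14 were lower and 1 higher, against 28.1% and 25.0%. The largest of these RF changes was that of EP300, an acetyltransferase that SMAD complexes recruit, with 13.6 and 13.4 RPKM with DMSO and 2.07 and 2.54 with Silvestrol in passages 3 and 4. Its RFs fell by 2.44 on the log2 scale (SE 0.17, edgeR adjusted p = 0.0158) and its z-score was -3.41. Its relative CREBBP had an RF log2 change of -0.92 and a z-score of -1.81 (-1.42 with passage 4). SMURF2, a ubiquitin ligase that SMAD7 brings to the receptors, had an RF log2 change of -1.83 and a z-score of -2.29. Further reductions in RFs were those of the deubiquitinase USP9X (log2 change -1.56, z-score -1.92), the SMAD phosphatase PPM1A (-1.17 and -2.05) and the co-repressor TGIF1 (-1.0 and -1.78), and the edgeR adjusted p-values of the 6 genes ran from 0.0158 to 0.0359. At the other end were LEMD3 and FKBP1A, with z-scores of 0.66 and 0.01.

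Of the other ligands and their traps, 1 of 11 had fewer RFs and 0 had more, a share near the 7.76% and 2.23% of all genes. With the block 2 were lower and 2 higher, against 28.1% and 25.0%. The gene with fewer RFs in the fit without the block was NOG, the BMP antagonist noggin, with 25.4 and 30.8 RPKM with DMSO and 8.52 and 10.1 with Silvestrol, whose RFs fell by 1.48 (SE 0.24, edgeR adjusted p = 0.0288, z-score -1.73). INHBA, with a z-score of -1.60 from 72 and 16 RF reads (-0.82 with passage 4), and FSTL3 (1.72) and LTBP1 (1.17) did not pass the RF test. None of the 7 other receptors did so either, although BMPR2, a type II receptor of the BMP branch, had a z-score of -1.99 and RFs of 4.89 and 13.2 RPKM with DMSO and 1.30 and 3.38 with Silvestrol (log2 change -1.94, SE 0.63, edgeR adjusted p = 0.109, and 1.06e-18 with the block). ACVR2A stood at -1.02 (-2.14 with passage 4), and ACVR1 and ACVR1B at 0.59 and 0.70.

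Of 18 target genes of the pathway, 0 passed the RF test in either direction, where 7.76% of all genes were lower and 2.23% higher, so a count of 0 among so few genes is near the background. With the block 10 were higher and 2 lower, where 25.0% of all genes were higher and 28.1% lower. ID1 and ID3, inhibitors of differentiation, had the highest z-scores of the list at 2.05 and 1.80. RFs on ID1 were 434 and 222 RPKM with DMSO and 808 and 512 with Silvestrol, while its mRNA was 174 and 101 RPKM. The lowest z-scores of the group were those of BHLHE40 (-1.19) and COL1A1 (-0.68).

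With INK128, 41 genes of the list could be analysed, of which 1 had a z-score below -1.5, against 5.58% of all genes, and 0 one above 1.5, against 1.75%. It was GDF15, a stress-induced ligand, at -2.01, with more rather than fewer RFs (11.3 FPKM with DMSO and 20.4 with INK128) and total RNA of 0.359 and 0.606 FPKM. JUNB and BHLHE40 followed at -1.29 and -1.06, and the highest were TGIF1 (1.40), CREBBP (1.18) and SNAI2 (1.08).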

How the data were processed

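Read counts and RPKM of the Silvestrol experiment were deposited by the authors, who discarded rRNA, mapped the remaining reads by Bowtie (hg19, canonical transcripts of UCSC KnownGene) and counted unique ones, RFs at the P-site. The INK128 table holds FPKM deposited by the authors; the program behind it is not given in the sources used here. Deposited means, TE, fold changes and z-scores were not used, and no per-sample column was left out (0 columns).

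Of 38,897 Silvestrol lines 25,758 were distinct, and each symbol kept its entry with the most RFs (mean RPKM at 2 h). Genes needed values above 0 in the 4 passage 3 libraries at 2 h (or the 4 INK128 libraries), a mean RF value of at least 1 and a mean mRNA value of at least 0.3. No pseudocount was added. Tests on counts used edgeR 4.0.16 (R 4.3.3, TMM, quasi-likelihood, Benjamini-Hochberg over 10,505 genes). The edgeR fits were also run on simulated counts. These held no passage effect, so they cannot decide between the fits with and without the block. DESeq2 1.42.0 was an alternative. Counting intervals are exact 95% binomial intervals of the read ratio and cover counting error only. Passages 3 and 4 are replicates 1 and 2. Their deviations from the group means correlated between DMSO and Silvestrol (r = 0.709 over 10,505 genes). The labels give the passage of each culture, so passages pair the samples. The main RF and TE fits leave this pairing out, and fits with the passage as block are given beside them.

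5′ UTRs came from GENCODE version 44 on GRCh37 (MANE Select for 99.4% of 10,302 genes) and were folded with RNAfold 2.7.2. Of the pathway list, genes past an adjusted p of 0.05 in the RF test without the block were named. So were the 2 lowest and 2 highest z-scores of each role and the 3 lowest and highest with INK128. EEF2 was added after its values were seen. Members and lists were chosen with earlier results of these data known.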

Additional observations from a re-analysis of the deposited data

How the results depend on the processing

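The 4 members with fewer RFs numbered 7 with the passage as replicate block and 7 with all 7 RF libraries in the fit (which adds TGFB2, SMAD7 and SKI in both), 5 with DESeq2, and 4 with library totals, without the filter or with a counted-length offset. Over all genes the lower calls went from 815 to 2954 with the block and 2146 with 7 libraries, and the higher ones from 234 to 2626, 1397 and, with DESeq2, 558. Members with lower TE in the interaction test went from 0 to 7 with the block and 3 with DESeq2. Members with a z-score below -1.5 went from 4 to 2 at a mean RPKM of at least 5, which removes SMAD7 and SKIL, and to 2 with untreated RFs as control, where SMAD3 stood at -1.39 and SMAD7 at -1.35; SMAD3 was at -1.04 with the RFs of passage 4 and -1.41 without the minimum values. Members with mRNA above 2-fold went from 2 to 0 with a pseudocount of 0.5. With INK128, TGFB2 alone passed 1.5 with a pseudocount of 0.5 (z-score 1.52) and with median and MAD (1.81), giving 1 member each in place of 0. The share of all genes past 1.5 is given above for the main setting only, so these counts have no background beside them. A mean FPKM of at least 5 left 0 members and gave no value. Without replicate 1 or 2 the RF log2 changes, which then carry no test, ran from -1.68 to -1.43 for TGFB1, -1.57 to -1.08 for SMAD3, -1.05 to -0.87 for SMAD4, -1.59 to -0.85 for SKIL and -0.68 to -0.27 for SKI. No called member changed direction under these alternatives. The block changed no call of TGFBR1 or TGFBR2, and none of the members in the test of 1 h against 2 h. The comparison without the library whose labels conflict was added after seeing the data. The cause of these shifts was not tested, except that fewer genes entered where a minimum was raised. Passage 4 had the least depth, 2 mRNA libraries carry every TE, and with 1 library per arm INK128 has no replicate check.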
